A study of Rattus norvegicus with 110 samples.

Results

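Lpin1 (ENSRNOG00000004377.6) and Acer2 (ENSRNOG00000007637.6) are a pair of lipid enzyme genes that were followed here through the livers and kidneys of F2 Sprague Dawley males, as 2 of the 31998 genes in the count tables. Both were chosen by their liver RNA: their level was lower in F2 males with a treated F0 grandsire, was lower in the same direction with a treated F1 sire, and was lower in vehicle males of cohorts C and D than of cohort A. The liver differences between cohorts, and the vehicle groups behind them, are therefore given as a description with no test. Tests were kept for the effect of the F2 dose, for kidney, for the organs and for the variation between rats of the same group, none of which served in the choice, although the liver tests use the same livers as it did and the kidneys came from rats among them. A joint test of cohort by dose is also given, and it does draw on cohort differences that served in the choice.

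All rats were outbred males bred from naive females. The F0 grandsire and the F1 sire had received either olive oil or 50% (v/v) carbon tetrachloride (CCl4), a hepatotoxin that causes liver injury and fibrosis, in olive oil by gavage 3 times a week for 6 weeks, with 2 weeks of recovery before mating. Cohort A had control ancestors in both generations, cohort B a treated F1 sire, cohort C a treated F0 grandsire and cohort D both. In each cohort, young adult F2 males received olive oil alone (vehicle), 8% CCl4 (low dose) or 50% CCl4 (high dose) at 0.5 ml/kg over 39 days, were fasted overnight and were sampled a day after the last dose. Livers of 83 males were sequenced, 7 in each of 12 groups except 6 in the vehicle group of cohort C, together with kidneys of the 27 vehicle males. Library totals ran from 31638559 to 51343589 counts in liver and from 21961746 to 35055218 in kidney. The males came from 34 litters, of which 27 had livers at more than 1 dose, 6 gave a single liver and 1 gave livers at 1 dose alone, and 4 litters had brothers in the same group. Rats of 1 litter share a sire and were killed on the same one of 4 necropsy dates. Ancestry is carried by the sire, so that cohort and family cannot be fully told apart.

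Lpin1 encodes lipin-1, an enzyme that turns phosphatidic acid into diacylglycerol, the last precursor of triglycerides and of the main membrane phospholipids. In liver lipin-1 also enters the nucleus, where it works with PGC-1alpha and PPARalpha on fatty acid oxidation genes, and its transcription is known to rise with fasting and glucocorticoids. Acer2 encodes alkaline ceramidase 2 of the Golgi apparatus, which splits ceramide into sphingosine and a fatty acid and is a known target of p53. The libraries matched their organ labels. The median level per transcript length, in TPM (transcripts scaled to a common sum), of Tat, a liver enzyme of tyrosine breakdown, was 388 in liver and 0.117 in kidney, while that of Lrp2, the megalin receptor of the proximal tubule, was 1.41 in liver and 302 in kidney, and that of Nphs1, nephrin of the podocyte, 0.338 and 16.3.

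The sequences before both genes' annotated starts are shown because both genes moved together between rats, as given further on. They are the 250 bases upstream of the RefSeq start in build GRCr8, 5′ to 3′ on the strand of the gene, with matches to 6 searched motifs in capitals.
Lpin1 (chr6:45108943-45109192, minus strand): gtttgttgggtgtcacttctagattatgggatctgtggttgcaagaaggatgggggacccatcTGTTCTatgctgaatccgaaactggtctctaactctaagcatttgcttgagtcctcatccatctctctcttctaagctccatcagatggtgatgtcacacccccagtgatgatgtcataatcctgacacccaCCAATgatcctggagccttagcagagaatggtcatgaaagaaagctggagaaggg
Acer2 (chr5:106437598-106437847, plus strand): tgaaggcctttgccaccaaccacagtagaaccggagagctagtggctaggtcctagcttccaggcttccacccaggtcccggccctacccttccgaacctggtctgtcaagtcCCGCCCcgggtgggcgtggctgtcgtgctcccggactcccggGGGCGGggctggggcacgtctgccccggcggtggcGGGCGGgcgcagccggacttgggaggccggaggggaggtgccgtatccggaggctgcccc
The Lpin1 window had 47.2% G and C and the Acer2 window 71.2%, against a median of 51.2% over 33469 rat promoters of the same length. Both strands were searched for 6 motifs, and no match in these windows overlapped that of another motif. The CCAAT box, spelled CCAAT, is found in 34.0% of the promoters and had 1 match in the Lpin1 window, 55 bases before the start. The core of the glucocorticoid response element, spelled AGAACA, is found in 17.5% and had 1 match on the reverse strand of the Lpin1 window, 187 bases before the start. The GC box, spelled GGGCGG, is found in 30.5% and had 3 matches in the Acer2 window, at 137, 95 and 60 bases before the start. The E box, spelled CACGTG, is found in 5.59% and had no match in either window. Neither had the TATA box, spelled TATAAA and found in 12.9%. The core of the cyclic AMP response element, spelled TGACG and found in 18.2%, had no match either. The Lpin1 start used by RefSeq here lies inside the annotated gene, so that other starts of Lpin1 were not covered.

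Liver levels are given first as normalised CPM, that is counts scaled to a common library size after correction of the totals with TMM, a scaling that assumes that most genes do not change. In cohort A, Lpin1 ran from 65.4 to 193 with a median of 134 in vehicle livers, from 40.4 to 377 with a median of 70.5 at the low dose, and from 39.3 to 200 with a median of 91.4 at the high dose. In cohort B the Lpin1 values ran from 33.6 to 256 (median 46.6) with vehicle, from 30.4 to 252 (median 84.3) at the low dose and from 18.5 to 201 (median 37.2) at the high dose. Within both cohorts the 3 dose groups of Lpin1 overlapped widely, and single livers stood far above their group. Cohort C livers had lower Lpin1, from 30.6 to 84.5 (median 45.8) with vehicle, from 34.4 to 116 (median 48.1) at the low dose and from 25.6 to 41.4 (median 27.6) at the high dose. Cohort D livers had Lpin1 from 30.2 to 58.7 (median 43.7) with vehicle, from 27.4 to 51.7 (median 35.0) at the low dose and from 16.9 to 58.9 (median 23.7) at the high dose. Over all 83 livers Lpin1 spanned 22.3-fold, and 17 of 21 livers of cohort A, 8 of 21 of cohort B and 4 of 20 of cohort C were above the highest liver of cohort D.

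Acer2 was less abundant and less variable. Its normalised CPM in cohort A ran from 23.0 to 40.5 (median 28.3) with vehicle, from 22.5 to 44.1 (median 30.7) at the low dose and from 23.5 to 38.2 (median 31.6) at the high dose, 3 ranges that nearly coincided. Cohort B had Acer2 from 14.6 to 33.6 (median 21.5), from 12.7 to 45.3 (median 26.8) and from 16.4 to 44.1 (median 22.8) at vehicle, low and high dose. In cohort C the Acer2 values were 11.7 to 20.1 (median 13.3), 10.5 to 35.5 (median 16.8) and 13.2 to 19.4 (median 15.2), and in cohort D 9.97 to 19.998 (median 12.6), 9.08 to 16.1 (median 14.3) and 12.1 to 29.0 (median 14.6), in the same order of doses. At each dose, cohorts C and D held most of their livers below the lowest liver of cohort A. Over all doses 17 of 20 Acer2 values of cohort C and 20 of 21 of cohort D lay below it, and Acer2 spanned 4.99-fold over the 83 livers. Fewer cells of a type and less RNA per cell cannot be told apart in such whole-liver samples.

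**Figure D1:**
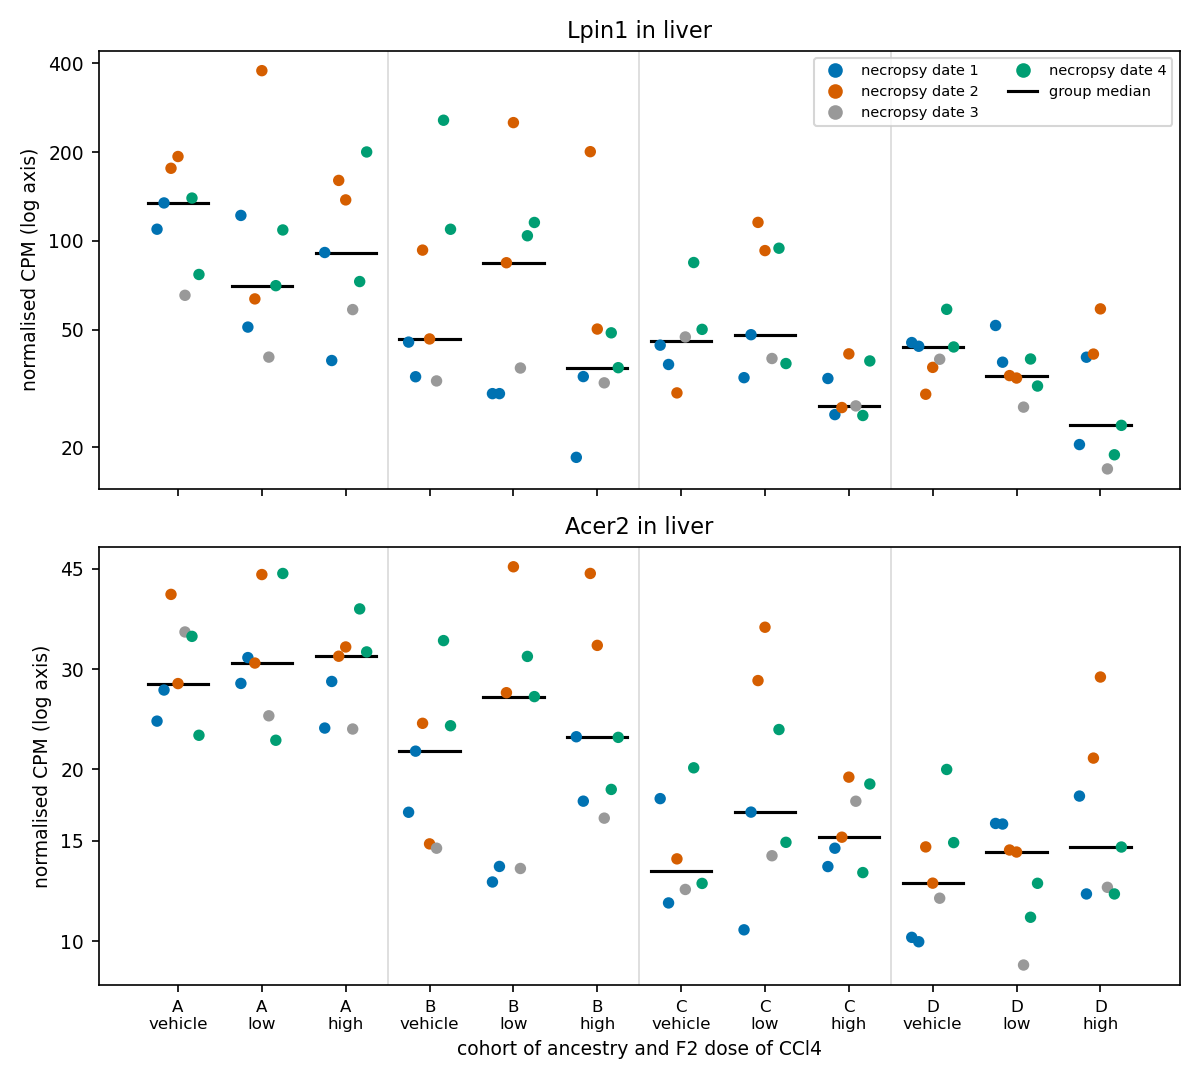
Normalised CPM (log axis) of Lpin1 (top) and Acer2 (bottom) in each of 83 livers by cohort of ancestry and F2 dose, with points coloured by necropsy date and lines at group medians. Dose groups of a cohort overlap for both genes, cohorts C and D sit low, and the highest Lpin1 livers, up to 377, belong to cohorts A and B.

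The spread between rats of a group, pooled over the doses of a cohort as a standard deviation of log2 CPM, was 0.86 in cohort A, 1.0996 in B, 0.54 in C and 0.46 in D for Lpin1, and 0.31, 0.58, 0.43 and 0.39 for Acer2. Ordered by mean log2 CPM, the Lpin1 groups ran from vehicle of cohort A (6.90 ± 0.58, SD, n = 7) through the other groups of A and low and vehicle of B to the high dose of C and of D (4.83 ± 0.69, SD, n = 7). The Acer2 groups ran from the low dose of cohort A (4.97 ± 0.38, SD, n = 7) to vehicle of cohort D (3.71 ± 0.35, SD, n = 7), with the 3 groups of A above the 3 of B and all of C and D below. No neighbouring groups in either order were further apart than the larger of their standard deviations (0 of 11 gaps for each gene). The difference that served in the choice, treated minus control F0 ancestor over all doses, was -1.21 ± 0.17 (SE) on the log2 scale for Lpin1 and -0.77 ± 0.10 for Acer2, and for the F1 sire -0.48 ± 0.17 and -0.31 ± 0.09. Cohort D minus cohort A was -1.58 ± 0.44 (SE) for Lpin1 in vehicle livers, -1.68 ± 0.44 at the low dose and -1.79 ± 0.44 at the high dose. For Acer2 the same differences were -1.18 ± 0.23, -1.27 ± 0.23 and -0.82 ± 0.23. Cohort C minus cohort A was -1.38 ± 0.46, -0.85 ± 0.43 and -1.78 ± 0.44 for Lpin1 and -1.04 ± 0.25, -0.65 ± 0.23 and -0.91 ± 0.23 for Acer2. In each of these contrasts both genes were lower in the cohort with the treated grandsire, at the low and high doses as in vehicle livers. In a sequential split of the sum of squares of log2 CPM, cohort took 34.9% for Lpin1 and 50.3% for Acer2, dose 5.84% and 1.34%, date 16.2% and 14.7%, and litter 16.8% and 7.65%. Date raised the number of fitted terms from 12 to 15, and litter from 15 to 42, with 23.5% left over for each gene. The litter share is thus spread over many more terms and cannot be set beside the shares of dose and date.

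The first tested question was whether the F2 dose moved either gene. A gene was called at an edgeR quasi-likelihood adjusted p below 0.1 over all liver genes tested together with a log2 fold change above 1 or below -1. Neither Lpin1 nor Acer2 was called in any cohort at either dose. Without the livers of date 2, however, Lpin1 at the high dose in cohort B was called, at -1.46 ± 0.42 (SE, edgeR adjusted p = 0.00425), against -0.55 with all dates and 0.41 without date 4. For comparison, the low dose against vehicle called 3.70% of genes in cohort A, 3.65% in B, 4.46% in C and 4.25% in D, and the high dose 21.7%, 26.4%, 21.7% and 22.6%. Averaged over the cohorts, the low dose called 6.26% of genes, the high dose 25.3% and high against low dose 15.9%. Livers of all 3 doses entered the choice of both genes, through the F0 and F1 differences over all doses, and vehicle livers did so a second time, through the differences between vehicle groups.

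For Lpin1, low dose minus vehicle averaged over cohorts was 0.05 ± 0.22 (SE, adjusted p = 0.923 by edgeR), high dose minus vehicle -0.47 ± 0.22 (adjusted p = 0.0502) and high minus low dose -0.52 ± 0.21 (adjusted p = 0.0327). Lpin1 was thus lower at the high than at the low dose under this scaling, by a fold below the threshold of a call, and the difference was -0.076 on library totals. By cohort the high dose minus vehicle was -0.24 ± 0.43 in A, -0.55 ± 0.43 in B, -0.64 ± 0.44 in C and -0.44 ± 0.43 in D. For Acer2 the averages were 0.19 ± 0.12 (low minus vehicle, adjusted p = 0.267), 0.17 ± 0.12 (high minus vehicle, adjusted p = 0.196) and -0.02 ± 0.12 (high minus low, adjusted p = 0.912). Across the 4 cohorts Acer2 at the high dose differed from vehicle by -0.02 ± 0.23, 0.23 ± 0.23, 0.12 ± 0.24 and 0.34 ± 0.23. A joint test of cohort by dose gave an unadjusted p of 0.783 for Lpin1 and 0.457 for Acer2 by edgeR (adjusted p = 1 for both), and called 0.0105% of all genes. The differences between cohorts enter this test and served in the choice of both genes, so that it gives no independent result. The Lpin1 value moved when livers were left out, with an unadjusted p of 0.227 without the highest Lpin1 liver (adjusted p = 1) and of 0.0208 (adjusted p = 0.64) without the 5 livers that stood far above their group in Lpin1. Those livers were picked for their high Lpin1, which narrows the spread of the rest. The smaller p is therefore no evidence that dose effects differ between cohorts. Low dose minus vehicle in cohort A, -0.10 ± 0.43 for Lpin1 with all livers, was likewise -0.75 ± 0.42 without the highest one (edgeR adjusted p = 0.409).

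These directions depend on the scaling. High-dose livers put a smaller share of their counts into the 20 most abundant genes, a median of 24.6% against 31.3% with vehicle and 29.4% at the low dose, and their median TMM factor was 1.27 against 0.841 and 0.942. Scaled by library totals alone, a choice made after the data were seen, the median gene itself was 0.62 higher at the high dose than with vehicle on the log2 scale, against 0.01 under TMM. On library totals Lpin1 was 0.12 higher than vehicle at the high dose (edgeR adjusted p = 0.595) and Acer2 0.79 higher (adjusted p = 2.63e-08). Relative to the median gene, Lpin1 at the high dose was below it and Acer2 above it under either scaling. A change of scaling moves most genes by a similar amount, so that this is 1 observation and not 2. Under TMM neither difference from vehicle was called, with edgeR adjusted p of 0.0502 for Lpin1 and 0.196 for Acer2. Leaving out single livers or dates also moved both genes. For Lpin1 the high minus low dose difference was -0.35 (adjusted p = 0.126 by edgeR) without the single highest Lpin1 liver, and the high minus vehicle difference was -0.83 without date 2 and -0.14 without date 4. Within dates, high minus low dose for Lpin1 was -0.44, -0.43, -0.22 and -0.65 on dates 1 to 4, whereas high minus vehicle was -0.69, 0.25, -0.55 and -1.01. For Acer2, high minus vehicle within dates was 0.15, 0.53, 0.05 and -0.13, and low minus vehicle 0.06, 0.57, -0.20 and -0.03. Without date 4, Acer2 high minus vehicle was 0.31 (edgeR adjusted p = 0.0584, below the threshold of fold), without date 2 it was 0.0076, and low minus vehicle without date 2 was -0.02.

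The ratio of Acer2 to Lpin1 counts within a library needs no scaling, and was added after the data were seen. In cohort A its log2 value ran from -2.77 to -0.91 (median -2.12) with vehicle, from -3.10 to -0.70 (median -1.30) at the low dose and from -2.64 to -0.46 (median -1.95) at the high dose. Cohort B had ratios of -2.93 to -0.69 (median -1.65), -2.47 to -1.17 (median -1.63) and -2.18 to 0.30 (median -0.98). In cohort C the ratios were -2.07 to -1.13 (median -1.82), -2.01 to -1.37 (median -1.52) and -1.34 to -0.65 (median -0.96), and in cohort D -2.16 to -1.05 (median -1.56), -1.85 to -1.26 (median -1.35) and -1.74 to -0.19 (median -0.70), each in the order vehicle, low and high dose. The high-dose livers of cohort C all lay above its low-dose livers, and the dose groups of the other cohorts overlapped. The mean over cohorts of high minus vehicle was 0.68 ± 0.15 (SE, two-sided permutation of doses within cohorts, p = 4e-05, adjusted p = 0.00012 over 3 comparisons), higher in 4 of 4 cohorts (0.33, 0.78, 0.73 and 0.86 in A to D). High minus low dose was 0.48 ± 0.15 (permutation p = 0.00342, adjusted p = 0.00513), with -0.16 in cohort A and 0.75, 0.68 and 0.65 in B, C and D. Without the highest Lpin1 liver, a low-dose liver of cohort A, the mean was 0.41 (permutation p = 0.00957) and cohort A stood at -0.42. Low minus vehicle was 0.19 ± 0.14 (permutation p = 0.169). Acer2 thus rose relative to Lpin1 from vehicle to the high dose with the same sign in each cohort, whereas the mean rise from low to high dose came from cohorts B, C and D, with cohort A on the opposite side.

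**Figure D2:**
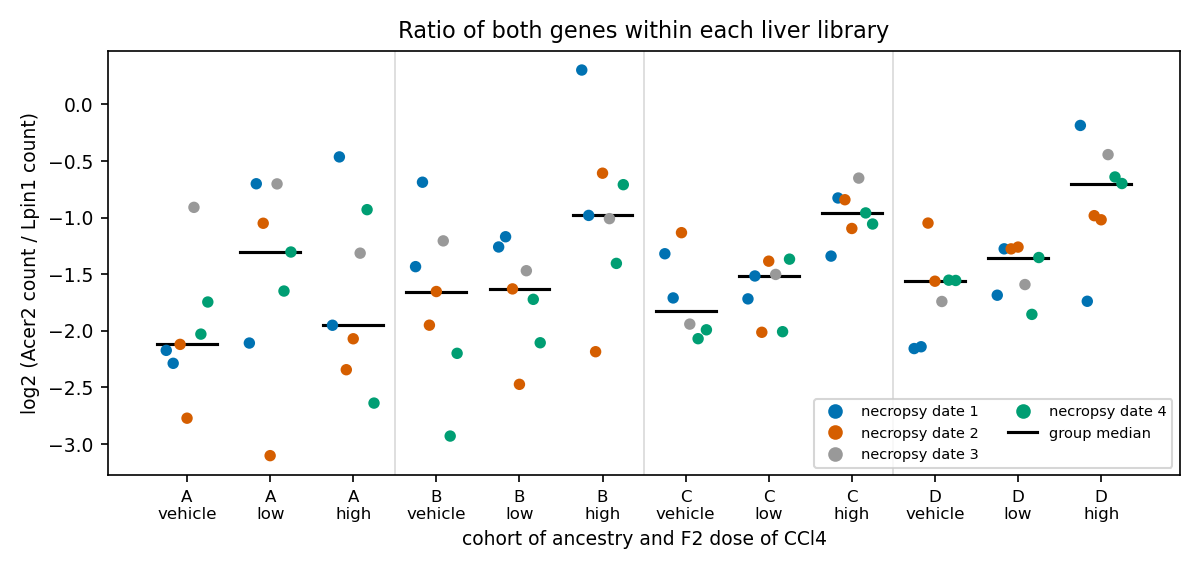
Log2 ratio of Acer2 to Lpin1 counts within each of 83 liver libraries by cohort and F2 dose, coloured by necropsy date, with lines at group medians. The high-dose medians lie above the vehicle medians in all 4 cohorts, from -1.95 against -2.12 in cohort A to -0.70 against -1.56 in cohort D.

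Other enzymes of the same pathways could be followed only where a symbol was paired with an identifier, 4 other genes of 24 listed for glycerolipid synthesis and 4 other genes of 30 for ceramide and sphingosine metabolism. These pairs come from genes the study chose for an F0 effect in these livers, so that they are no independent sample of the pathways. At the high dose 1 of the 4 glycerolipid and 1 of the 4 ceramide genes was called, a share near that over all genes tested (25.3%). The glycerolipid gene was Gpat3, the acyltransferase of an early step, which rose by 3.10 ± 0.34 (log2, SE, edgeR adjusted p = 7.91e-13). Lpin3, the lipin family relative of Lpin1, differed by 0.49 ± 0.06, Cds1, which draws phosphatidic acid towards CDP-diacylglycerol, by 0.36 ± 0.09, and Plpp1, a lipid phosphate phosphatase, by 0.20 ± 0.08, all below the threshold of fold. On library totals, where the median gene was 0.62 higher, Gpat3 was 3.77 higher, Lpin3 1.12 (edgeR adjusted p = 1.79e-21), Cds1 0.96 and Plpp1 0.83, so that Lpin3 also passed both thresholds. The called ceramide gene was Cers6, a ceramide synthase, which fell by 1.13 ± 0.12 (edgeR adjusted p = 1.27e-13) under TMM and differed by -0.53 on library totals. Sphk2, a sphingosine kinase, differed by -0.42 ± 0.07, Degs1, the desaturase that makes ceramide, by -0.22 ± 0.05, and Sgms1, which turns ceramide into sphingomyelin, by -0.49 ± 0.06, and these 3 changed sign on library totals (0.17, 0.40 and 0.12). At the low dose Gpat3 alone of the 8 was called, at 1.99 ± 0.33, beside 6.26% of all genes.

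Of the markers of other liver cells, identifiers were paired with 3 of 8 macrophage genes and 1 of 10 endothelial genes, and with none of the hepatocyte, stellate cell, cholangiocyte and cell division genes. The summed normalised CPM of the macrophage genes Cd5l, Cd163 and Adgre1 ran from 116 to 315 (median 154) with vehicle, from 103 to 257 (median 174) at the low dose and from 72.6 to 346 (median 189) at the high dose. Kdr, the endothelial receptor of VEGF, ran from 50.1 to 132 (median 93.7), from 54.0 to 115 (median 85.2) and from 19.1 to 98.7 (median 42.6). These marker differences depended on the scaling. High dose minus vehicle for Kdr was -1.05 ± 0.10 (log2, SE, edgeR adjusted p = 4.6e-15, called) under TMM and -0.48 on library totals, and for Cd5l, Cd163 and Adgre1 it was 0.00, 0.02 and 0.39 under TMM and 0.60, 0.62 and 0.99 on library totals. Their part in the Lpin1 and Acer2 differences was not tested. Within groups, over the 83 livers, r with Cd5l, Cd163, Adgre1 and Kdr was -0.05, 0.26, -0.07 and -0.01 for Lpin1 and 0.08, 0.24, -0.11 and -0.06 for Acer2. Cd163 was thus the closest marker to either gene, at place 1087 of 12253 genes for Lpin1 and 960 for Acer2.

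The next question was whether both genes varied together between rats given the same dose in the same cohort. Each rat's deviation from its group mean of log2 CPM was used, so that the cohort and dose differences above play no part, and 13 relations were computed in all. Over the 83 livers Lpin1 and Acer2 deviated to the same side in 62, and their Pearson r was 0.72 and Spearman rho 0.67 (permutation p = 1e-05 for each, the smallest that the permutations can give, adjusted p = 6.5e-05). Without the 2 livers farthest on the Lpin1 axis r was 0.70. By dose, r was 0.61 in the 27 vehicle livers (permutation p = 0.00274, adjusted p = 0.00891, rho 0.54 with p = 0.0111), 0.84 in the 28 low-dose livers (p = 1e-05, adjusted p = 6.5e-05, rho 0.86 with p = 1e-05) and 0.62 in the 28 high-dose livers (p = 0.0023, adjusted p = 0.00891, rho 0.51 with p = 0.0133). Leaving out the 2 farthest livers gave 0.43, 0.84 and 0.48.

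Part of this co-variation followed the necropsy date. On dates 1 to 4 the mean deviation of Lpin1 from its group means was -0.34, 0.46, -0.59 and 0.19 (log2), and that of Acer2 was -0.21, 0.30, -0.31 and 0.08, so that on average both genes were high on date 2 and low on dates 1 and 3. Cohort D was an exception on date 1, with Lpin1 at 0.13 (5 of 6 livers above their group mean) and Acer2 at -0.07 (3 of 6). The vehicle livers were an exception on date 2, where they lay on both sides of their group means. They ran from -0.61 to 0.69 for Lpin1 and from -0.47 to 0.44 for Acer2. With the mean of each group on each date taken out instead, r was 0.44 over all livers (permutation p = 0.0184), 0.72 with vehicle (p = 0.0513), 0.63 at the low dose (p = 0.0669) and -0.02 at the high dose (p = 0.958). A group had no more than 2 livers on a date, and a single one on date 3, which then carried no deviation. These r therefore rest on differences within pairs of livers, fewer than the livers counted above. At the high dose r was 0.03 without the livers of date 2, and with vehicle it was 0.14 without those of date 4. The date carries the day's fasting, handling and killing together with a set of litters, and their parts cannot be told apart.

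**Figure D3:**
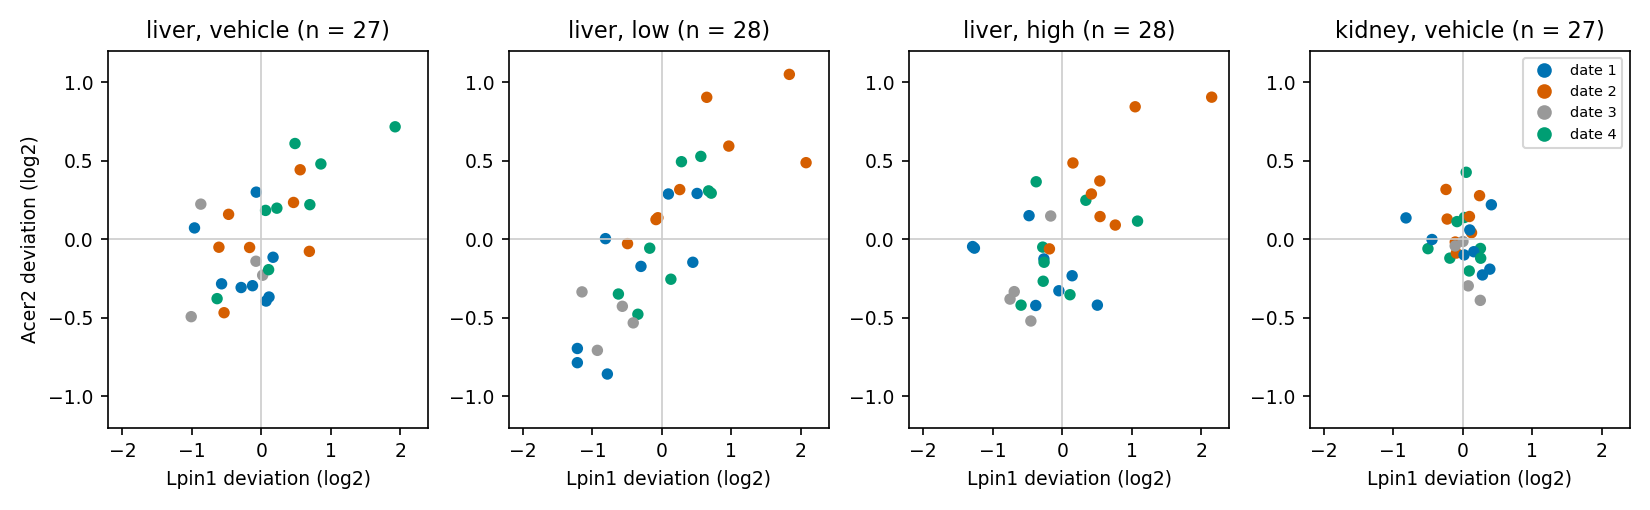
Deviation of Acer2 (vertical) against that of Lpin1 (horizontal) from the group mean, both in log2 normalised CPM, for vehicle, low-dose and high-dose livers and for kidneys of vehicle males, coloured by necropsy date. Points rise together in the 3 liver panels (r of 0.61, 0.84 and 0.62), with date 2 at the upper right for the low and high doses, and do not in kidney (r of -0.21).

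Brothers given different doses were compared for each gene. For Lpin1 r between brothers was 0.37 for vehicle with low dose (22 pairs, permutation p = 0.196), 0.23 for vehicle with high dose (20 pairs, p = 0.478) and 0.40 for low with high dose (21 pairs, p = 0.127), with rho of 0.42 (p = 0.111), 0.26 (p = 0.316) and 0.53 (p = 0.0239). For Acer2 it was 0.12 (permutation p = 0.641), -0.13 (p = 0.633) and 0.44 (p = 0.08), with rho of 0.18 (p = 0.472), -0.17 (p = 0.532) and 0.41 (p = 0.0909). No r or rho between brothers passed a threshold of 0.05 after adjustment over the 13 relations (lowest adjusted p = 0.173 for r and 0.0621 for rho), and without the 2 farthest pairs r lay between 0.23 and 0.45 for Lpin1 and between 0.06 and 0.34 for Acer2. Brothers were killed on the same date, so that litter and date are mixed here. With the mean of each group on each date taken out, r was -0.15, 0.29 and -0.19 for Lpin1. For Acer2 it was -0.15, -0.32 and -0.41 (permutation p of 0.0563 or more for all 6).

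Among 12253 genes with a mean count over 50, Lpin1 was the gene whose deviations were most like those of Acer2 (r = 0.72), and Acer2 was the eighth most like Lpin1. These values describe the same 83 livers and carry no test, and all points share library depth and date. The genes most like Lpin1 were Il6r, the receptor of interleukin 6 (r = 0.80), Sdc4, the cell surface proteoglycan syndecan 4 (0.78), Zbtb16, the zinc finger transcription factor PLZF (0.76), Foxo1, a transcription factor of fasting (0.75), and Csnk1d, casein kinase 1 delta (0.74). After Lpin1, those most like Acer2 were Sdc4 (0.71), Fkbp5, a cochaperone of the glucocorticoid receptor (0.71), Pcyt1a, an enzyme of phosphatidylcholine synthesis (0.70), and Klf13, a Krüppel-like factor (0.64). In all, 106 genes had an r over 0.5 with Lpin1 and 49 with Acer2. Of these, 68 and 40 had a symbol, as against 11.4% of all the genes compared, and the genes with a symbol are those the study chose for an F0 effect.

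The 6 genes with an identifier, of 16 listed as glucocorticoid and fasting responsive, varied in the same direction as both, as did 43.6% of all genes and 50.8% of those with a symbol. The median r over all genes was 0.02 with each of Lpin1 and Acer2, and 0.06 and 0.07 over those with a symbol. The r of the 6 with Lpin1 was 0.76 for Zbtb16, 0.72 for Klf9, 0.68 for Fkbp5, 0.63 for Per1, 0.60 for Tat and 0.56 for Tsc22d3, and with Acer2 from 0.39 (Tsc22d3) to 0.71 (Fkbp5). Of the p53 targets with an identifier (4 of 14), Cdkn1a, the cell cycle inhibitor p21, had r of 0.50 with Lpin1 and 0.52 with Acer2, Plk3 0.49 and 0.58, Tp53inp1 0.53 and 0.46, and the stress cytokine Gdf15 -0.11 and -0.04. Of the circadian clock genes (8 of 16) the others than Per1 lay between -0.10 and 0.09 with Lpin1 and between -0.28 and 0.07 with Acer2. The coactivator Ppargc1a (PGC-1alpha), the single gene with an identifier of 16 listed for fatty acid oxidation, had r of 0.42 with Lpin1 and 0.20 with Acer2. Of the enzymes beside Lpin1 and Acer2 in their pathways, Gpat3, Lpin3, Plpp1 and Cds1 had r from -0.09 to 0.13 with Lpin1. Between Acer2 and Cers6, Degs1 and Sphk2 r lay from -0.13 to 0.04, while Sgms1 reached 0.40 with Acer2 and 0.45 with Lpin1.

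The organs held both genes in opposite proportions. In TPM, which allows levels of different genes to be compared, Lpin1 had a median of 17.2 (5.97 to 83.1) in the 27 vehicle livers and of 3.27 (1.81 to 4.37) in the kidneys of the same rats. Acer2 had a median of 3.87 (1.76 to 8.32) in liver and of 24.9 (16.7 to 39.2) in kidney. Lpin1 was higher in liver in 27 of 27 rats, by a median of 5.05-fold (1.83 to 21.3), and Acer2 higher in kidney in 27 of 27, by a median of 6.46-fold (3.71 to 14.1). Lpin1 exceeded Acer2 in all 83 livers, with a median ratio of TPM of 4.46, whereas in all 27 kidneys Acer2 exceeded Lpin1, with a median ratio of 7.60. Kidney minus liver was -3.69 ± 0.19 (log2, SE, edgeR adjusted p = 2.41e-25) for Lpin1 and 1.89 ± 0.09 (adjusted p = 8.09e-27) for Acer2, and both genes were called, as were 46.9% of the 19292 genes tested. On library totals the differences were -2.72 and 2.85, beside a median gene at 1.002.

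**Figure D4:**
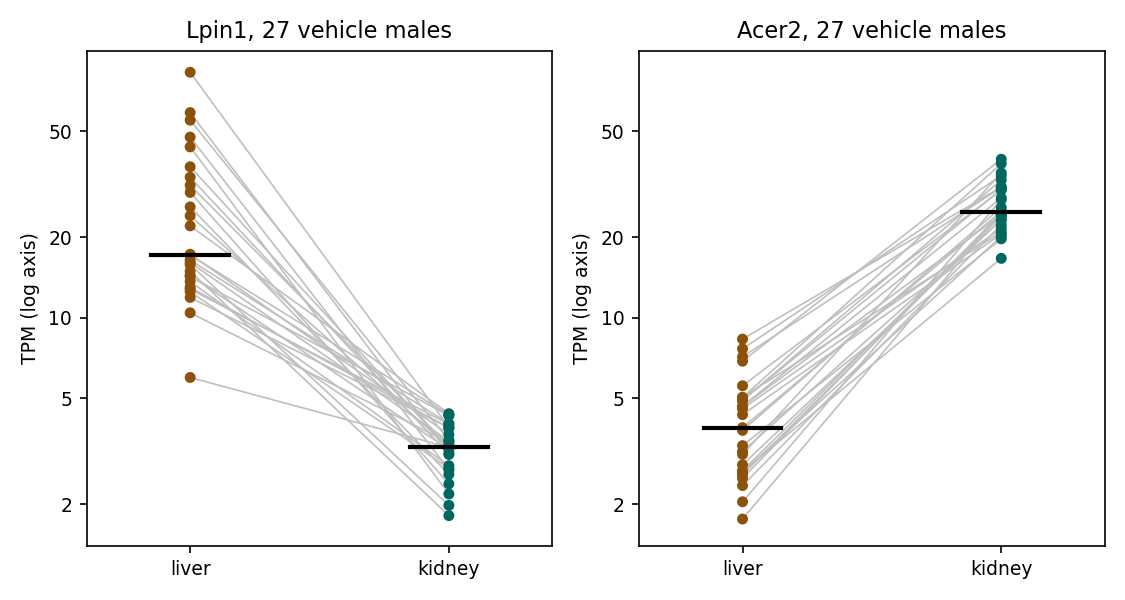
TPM (log axis) of Lpin1 (left) and Acer2 (right) in liver and kidney of the 27 vehicle males, with lines joining the organs of a rat and bars at medians. Every line falls from liver to kidney for Lpin1 (medians 17.2 and 3.27) and rises for Acer2 (3.87 and 24.9).

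In kidney the other 4 glycerolipid genes stood on the opposite side from Lpin1. Gpat3 was 3.62 ± 0.33 higher than in liver (log2, SE), Cds1 1.62 ± 0.08 and Lpin3 1.004 ± 0.05 higher, all called, and Plpp1 0.95 ± 0.06, below the threshold of fold. Of the ceramide genes, Sgms1 was 1.01 ± 0.06 higher in kidney and Cers6 1.07 ± 0.12 lower, both called, with Degs1 at 0.56 ± 0.05 and Sphk2 at 0.02 ± 0.06. On library totals Cers6 was at -0.12 (edgeR adjusted p = 0.358) and no longer called, Sphk2 was at 0.98, and the other genes were higher in kidney by 1.52 to 4.56, so that Degs1 (1.52) and Plpp1 (1.92) also passed both thresholds. Of all 19292 genes tested, 11699 were called on library totals and 9057 under TMM. The organs were in libraries of different depth, prepared from different tissues, and Acer2 and Lpin1 counts in kidney ran from 2105 to 5225 and from 106 to 376.

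The kidney libraries also tell whether the ancestral difference was present outside the liver of the same vehicle males. Lpin1 in kidney ran from 6.04 to 10.8 normalised CPM (median 8.34) in cohort A, from 7.95 to 9.96 (median 9.61) in B, from 4.94 to 10.4 (median 10.02) in C and from 6.20 to 11.7 (median 8.23) in D. These 4 ranges overlapped throughout. Acer2 in kidney ran from 121 to 152 (median 137) in cohort A, from 93.9 to 155 (median 114) in B, from 79.8 to 127 (median 107) in C and from 87.8 to 128 (median 98.5) in D. For Acer2, 5 of 7 kidneys of B, 5 of 6 of C and 6 of 7 of D lay below the lowest kidney of cohort A. The mean log2 level of Acer2 in A exceeded that of B by 0.26, more than the larger standard deviation of both groups (0.24), and the other neighbours in the order differed by less than their spread.

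The F0 effect in kidney was 0.03 ± 0.11 (log2, SE, edgeR adjusted p = 0.953) for Lpin1 and -0.28 ± 0.08 for Acer2 (unadjusted p = 0.00124, adjusted p = 0.308). For these ancestor effects a gene was called at an adjusted p below 0.1 with a mean normalised count over 50, with no threshold of fold. Acer2 was thus not called in kidney, where 0.0109% of the 18374 genes tested were by edgeR, with 1599 at an unadjusted p below 0.05, whereas DESeq2 gave Acer2 an adjusted p of 0.0897 and called 73 genes, Acer2 among them. The F1 effect was 0.08 ± 0.11 (edgeR adjusted p = 0.977) for Lpin1 and -0.14 ± 0.08 (unadjusted p = 0.078, adjusted p = 0.808) for Acer2, with 0.00% of genes called by edgeR, 1225 genes at an unadjusted p below 0.05 and 0 called by DESeq2. The 6 glucocorticoid and fasting genes all had an F0 difference below 0 in kidney, from -0.31 ± 0.13 for Klf9 to -2.12 ± 0.52 for Zbtb16, with edgeR adjusted p from 0.237 to 0.512, so that none was called. These 6 have a symbol because the study chose them for an F0 effect, so that their common direction is no independent evidence of one. In kidney 45.2% of all genes tested and 52.0% of those with a symbol were below 0. Between the organs of a rat, the deviations of Lpin1 gave r of 0.04 (permutation p = 0.808, rho 0.11 with p = 0.545) and those of Acer2 r of 0.48 (p = 0.0237, adjusted p = 0.0616, rho 0.43 with p = 0.038), which was 0.45 without the 2 farthest rats. On TPM the Acer2 r was 0.27 (permutation p = 0.205). Without the 5 livers that stood far above their group in Lpin1 it was 0.30 (permutation p = 0.155). Within kidney Lpin1 and Acer2 had r of -0.21 (permutation p = 0.327, rho -0.25 with p = 0.232), also -0.21 without the 2 farthest rats, and deviated to the same side in 13 of 27 rats. On TPM this r was 0.24 (permutation p = 0.242) and on library totals -0.05 (p = 0.798), so that its sign depended on the measure.

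**Figure D5:**
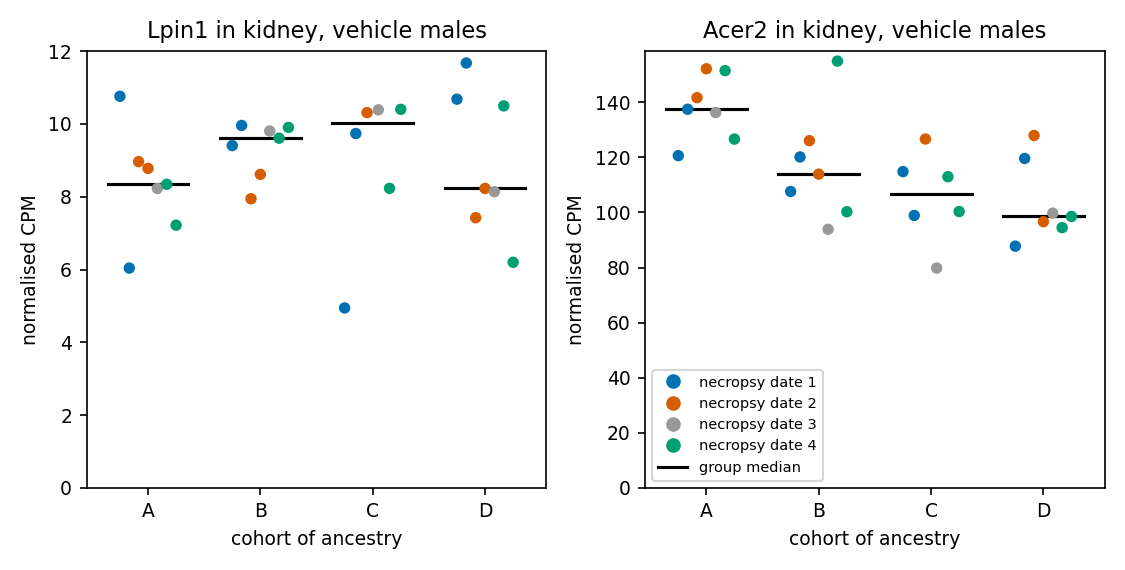
Normalised CPM of Lpin1 (left) and Acer2 (right) in kidneys of vehicle males by cohort of ancestry, coloured by necropsy date, with lines at group medians. Lpin1 medians lie between 8.23 and 10.02 with no order by cohort, and Acer2 medians go from 137 in cohort A to 98.5 in cohort D with overlapping points.

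The deposited average transcript length, which moves when a gene shifts between long and short isoforms, was examined last. In liver its median was 3037 bases for Lpin1 and 4879 bases for Acer2. High dose minus vehicle was 0.00 ± 0.01 on the log2 scale for Lpin1 (SE, limma adjusted p = 0.905) and 0.00 ± 0.00 for Acer2 (adjusted p = 0.539), while 21.9% of genes had a limma adjusted p below 0.1. Kidney minus liver was 0.05 ± 0.01 for Lpin1 (adjusted p = 6.34e-08) and 0.04 ± 0.00 for Acer2 (adjusted p = 1.59e-12), near the median of 0.07 over all genes, of which 96.9% passed the same threshold. The length differences of both genes between organs were thus below that of the median gene.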

How the data were processed

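RNA of 83 livers and 27 kidneys was sequenced by the study as stranded poly(A) libraries, quantified with Salmon 0.14.0 on Ensembl rat transcripts and summed to genes, per its methods and the submitters' processing notes (R 3.5.0, DESeq2). The authors deposited unnormalised counts per gene as whole numbers, and average transcript lengths in bases. From these, CPM scaled by TMM and TPM were computed. Genes were kept where the counts of any group summed to more than 10, and were tested with edgeR 4.0.16 (quasi-likelihood, 1 spread over all groups, Benjamini-Hochberg), lengths with limma 3.58.1, and DESeq2 1.42.0, other scalings, filters, blocks by date, litter or rat, and leaving out each date served as alternatives. Liver and kidney of a rat were paired by its animal number. Relations between rats used Pearson r and Spearman rho of log2 CPM (prior count 0.5) with 100000 permutations, in Python 3.11.15 with scipy 1.17.1. Sequences came from RefSeq (GRCr8). Gene symbols came from the study's 1407 pairs of identifier and symbol, 7.4% of the liver genes tested, with no full table of symbols used here. Both genes, the pathway lists and the tests were chosen with earlier results of these data known, and the genes named as most alike were the 5 with the highest r among genes with a symbol. Litters and dates came from the study's methods. Intervals cover the spread between rats of a group, 7 at most.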

Additional observations from a re-analysis of the deposited data

Results flagged for a closer look

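Dixon's test at the 95% level was applied to the normalised CPM of Lpin1 and Acer2 in each group, 32 sets of values in all, and it singled out 5. Chance gives about 1 in 20 only for normally distributed values. The test was run on CPM, where high values stand further apart than on the log2 scale used elsewhere. The count of 5 can therefore not be set against chance. All 5 were the highest Lpin1 liver of a group. They were the liver at 377 in the low-dose group of cohort A (next highest 122), at 201 in the high-dose group of cohort B (next 50.3), at 252 in the low-dose group of cohort B (next 115), at 256 in the vehicle group of cohort B (next 110) and at 84.5 in the vehicle group of cohort C (next 50.2). The first 3 were from necropsy date 2 and the other two from date 4. No Acer2 level and no kidney level stood apart by this measure.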

How the results depend on the processing

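Of 598 recomputed values with a test, 507 kept their direction and their side of the threshold (adjusted p of 0.1 for fold changes and lengths, unadjusted permutation p of 0.05 for relations and ratios), 59 changed direction, 17 came to pass the threshold and 15 no longer passed it. The 598 include each r without the 2 farthest samples, which had no test of its own and was judged by direction alone. Of 213 recomputed counts of genes called, 185 stayed within 1.5 times and 28 did not. The cause of the changes below was not tested. The kidney against liver results were among those kept: with the rat as a replicate block they were -3.55 for Lpin1 and 1.92 for Acer2, and no call changed. Each liver held at least 284 counts of Acer2 and 747 of Lpin1, and the kidneys as few as 106 of Lpin1.

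Scaled by library totals (chosen after the data were seen), Lpin1 high minus low dose was -0.076, and Lpin1 high minus vehicle was 0.12 on average and 0.42, 0.095 and 0.087 in cohorts A, B and D, with low minus vehicle at 0.040 in cohort A (-0.75 under TMM without the highest Lpin1 liver). Acer2 high minus vehicle was then 0.79 on average and 0.67, 0.90, 0.66 and 0.91 in A to D, high minus low 0.44, and low minus vehicle 0.35 on average, 0.68 in C and 0.14 in D.

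The Acer2 difference between high and low dose, near 0, changed sign with DESeq2 size factors (0.022), DESeq2 (0.022), a litter block (0.044), a mean count over 10 (0.011), no filter (0.036), the compared groups alone (0.0079), without date 1 (0.024), date 2 (0.028) or date 4 (0.019), and without the highest Lpin1 liver (0.0042) or the 5 livers standing apart (0.011), the last pair chosen after the data were seen. Acer2 high minus vehicle in cohort A likewise became 0.0056 with DESeq2 size factors, 0.0055 with DESeq2, 0.087 with a litter block, 0.0082 with length offsets, 0.021 with no filter and 0.0058, 0.050 and 0.087 without dates 1, 2 and 3.

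Lpin1 low minus vehicle became -0.063 with a date block, -0.10 with a litter block, -0.35 without date 2, -0.11 without the highest Lpin1 liver and -0.038 without the 5 livers, and in cohort B -0.033 with a date block. Without date 2 it was -0.60 in cohort B and -0.055 in C, while Acer2 low minus vehicle was -0.020 on average and -0.18 in B, and Acer2 high minus vehicle -0.15 in B. Acer2 low minus vehicle in cohort D was 0.014 with a date block and 0.018 and 0.24 without dates 3 and 4, and in cohort A -0.0033 without the highest Lpin1 liver and -0.0034 without the 5 livers.

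Lpin1 high minus vehicle was -0.40 and -0.14 without dates 1 and 4 (adjusted p = 0.166 and 0.667), and high minus low -0.47, -0.49 and -0.35 without date 1, date 4 and the highest Lpin1 liver (adjusted p = 0.113, 0.115 and 0.126). In cohort B Lpin1 high minus vehicle passed at -1.46 without date 2, past the threshold of fold too and so called, and at -0.70 without the 5 livers, and was 0.41 without date 4. It passed at -0.93 in cohort D without date 2 and at -0.63 in C with the compared groups alone. Acer2 high minus vehicle passed at 0.19 with the compared groups alone and at 0.31 without date 4, when cohort D was at 0.64.

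In kidney the Acer2 F0 effect passed with DESeq2 (-0.28, adjusted p = 0.0897), and Lpin1 F1 was -0.058 without date 1. For relations, deviations from the mean of each group on each date gave -0.15 and -0.19 between Lpin1 brothers (vehicle with low, low with high), -0.15 and -0.41 between Acer2 brothers, -0.12 between organs for Lpin1, and for Lpin1 with Acer2 0.72, 0.63 and -0.018 at vehicle, low and high dose. TPM gave -0.17 between Acer2 brothers (vehicle with low), 0.27 and -0.013 between organs for Acer2 and Lpin1, and 0.24 for Lpin1 with Acer2 in kidney. Lpin1 with Acer2 was 0.14 in vehicle livers without date 4, 0.40 without the 5 livers, and 0.028 in high-dose livers without date 2. Between organs Acer2 had 0.49 and 0.40 without dates 1 and 3 and 0.30 without the 5 livers, and Lpin1 -0.11 without date 4. Between Lpin1 brothers (low with high) rho was 0.53, and r 0.59 without date 2. Between Acer2 brothers r was -0.0050 (vehicle with low) without date 3, and -0.091, 0.47 and 0.67 (vehicle with low, vehicle with high, low with high) without date 4, with 0.11 (vehicle with high) without the 2 farthest.

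Counts of genes called that moved by over 1.5 times were those of the low dose in cohort A (704, with 1067 on library totals and 313 without date 2), B (694, 377 without date 4), C (848, 375 to 552 without dates 1, 2 or 3, 461 with a litter block and 462 with the compared groups alone) and D (807, 477 without date 1), the high dose in A (4125, 6758 on library totals), the kidney F0 effect (2, with 73 by DESeq2, 7 with a date block and 0 or 1 with library totals, no filter, length offsets or without date 1, 2 or 4) and the interaction (2, with 0 to 5).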
